A study of Rattus norvegicus with 4 samples.

Results

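A set of 10 genes of the early transcriptional response, of 23360 gene symbols in the data, was followed in rat INS-1 832/3 cells (hereafter INS-1) grown flat or in a bioprinted hydrogel. They are the zinc finger factors Egr1, Egr2 and Egr3, the orphan nuclear receptors Nr4a1, Nr4a2 and Nr4a3, the Krüppel-like factors Klf4, Klf6 and Klf10, and Ier2. The set was chosen by gene name and function, with earlier results of these data known. For each symbol the abundances of all listed transcripts were summed. INS-1 is an insulin-secreting line derived from a rat insulinoma that also carries a human insulin gene and is grown with Geneticin. Poly(A) RNA was sequenced from 2 standard monolayer cultures (2D) and 2 cultures bioprinted in GelXA LAMININK 411, a gelatin methacrylate hydrogel blended with laminin-411 and crosslinked with light (3D). All 4 cultures were at passage 3, were kept in the same serum-containing medium and were harvested after 5 days. The samples are biological replicates of a single line, and the interval between the last medium change and harvest is not given in the sources used here.

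Early response genes are transcribed within minutes of a growth factor, calcium or cAMP signal, without the need for new protein, and their mRNAs are short-lived. ERK signaling reaches them through SRF and its ETS partners at CArG boxes, and calcium and cAMP reach them through CREB at CRE sites. EGR proteins bind GC-rich sites through zinc fingers, NR4A receptors bind DNA without a known endogenous ligand, and KLF proteins bind GC-rich and CACCC elements. In β-cells, Egr1 and Nr4a1 are known to respond to glucose and to cAMP-raising hormones.

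Upstream DNA was examined first, to show which signal-responsive motifs lie near the annotated starts of the genes. Whether these starts are the ones used in INS-1 cells was not tested. RefSeq promoter windows (assembly GRCr8, 250 bases before to 50 after the annotated start) were found for 7 of the 10 genes. The genes not matched were Egr3, Nr4a3 and Klf10. Each line below gives the 250 bases before the start of a gene, 5′ to 3′ on the gene's own strand, with motif matches in capitals. Shown are Nr4a1 and Klf6, which rose in 3D culture, and Egr1, Egr2 and Ier2, which carry a CArG box or a full CRE. The windows of Nr4a2, which also rose, and of Klf4 are not shown. Nr4a2 held TGACG at -8 to -4 and no other match. The locations are chr7:134259888-134260137 on the plus strand for Nr4a1, chr17:69458479-69458728 on the minus strand for Klf6, chr18:26736828-26737077 on the plus strand for Egr1, chr20:21054442-21054691 on the minus strand for Egr2 and chr19:40399123-40399372 on the plus strand for Ier2.
Nr4a1: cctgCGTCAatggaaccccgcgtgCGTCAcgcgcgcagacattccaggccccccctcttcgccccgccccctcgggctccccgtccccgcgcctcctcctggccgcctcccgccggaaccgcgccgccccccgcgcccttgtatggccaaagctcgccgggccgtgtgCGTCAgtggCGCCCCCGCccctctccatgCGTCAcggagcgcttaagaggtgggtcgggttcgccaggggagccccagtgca
Klf6: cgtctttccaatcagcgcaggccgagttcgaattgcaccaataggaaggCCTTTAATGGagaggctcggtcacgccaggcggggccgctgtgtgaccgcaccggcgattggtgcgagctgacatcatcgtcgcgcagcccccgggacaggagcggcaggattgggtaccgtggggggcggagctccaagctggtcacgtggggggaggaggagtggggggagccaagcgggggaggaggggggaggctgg
Egr1: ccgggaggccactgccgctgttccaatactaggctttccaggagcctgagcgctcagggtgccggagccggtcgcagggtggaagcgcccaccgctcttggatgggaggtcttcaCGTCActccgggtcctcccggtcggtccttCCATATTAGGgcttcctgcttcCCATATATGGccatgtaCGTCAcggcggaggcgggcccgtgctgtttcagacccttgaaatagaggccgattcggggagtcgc
Egr2: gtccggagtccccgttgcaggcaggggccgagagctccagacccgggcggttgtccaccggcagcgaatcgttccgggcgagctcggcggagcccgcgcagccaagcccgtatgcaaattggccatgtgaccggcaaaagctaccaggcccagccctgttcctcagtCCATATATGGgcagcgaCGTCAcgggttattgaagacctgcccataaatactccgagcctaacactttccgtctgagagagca
Ier2: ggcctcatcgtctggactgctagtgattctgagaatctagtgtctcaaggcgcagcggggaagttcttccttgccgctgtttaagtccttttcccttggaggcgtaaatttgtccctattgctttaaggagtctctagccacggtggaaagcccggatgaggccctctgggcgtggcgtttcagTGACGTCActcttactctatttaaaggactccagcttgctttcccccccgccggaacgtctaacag

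The motifs searched, on both strands and over the whole window, were the full CRE (TGACGTCA), its core TGACG (2 of these overlap within each full CRE), the CArG box, the EGR sites GCGTGGGCG and GCGGGGGCG, the NR4A site AAAGGTCA (NBRE), the AP-1 site TGANTCA and TATAAA. The CArG box was present in 3 of the 7 windows (Egr1, Egr2 and Klf6) and in 1.64% of the 33469 windows of the table. Egr1 held 2 of them. Egr1 and Egr2 shared the same CArG letters, CCATATATGG, at the same distance from the start (-83 to -74), and each also had a CRE core at -66 to -62. Nr4a1 had 4 CRE cores and an EGR site at -73 to -65. A CRE core occurred in 5 of the 7 windows and in 21.2% of all windows, and an EGR site in 1 of 7 and in 3.20%. Ier2 held the only full CRE among them, at -66 to -59, where 1.83% of all windows have one. TATAAA was found in the window of Klf4 alone (14.2% of all windows). Neither the NBRE (1.43% of all windows) nor the AP-1 site (7.33%) was found in these 7 windows. GC content ran from 45% (Klf4) to 72.3% (Nr4a1) in the 7 windows, with a median of 51.7% over all windows. The shares of all windows are not matched for GC content. The matches describe letters in a window and not occupied sites.

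The authors quantified the reads as TPM, a transcript abundance that is corrected for length and sums to 1000000 per sample, so levels can be compared between genes. Values below are TPM scaled between samples by a trimmed mean of M values, and fold changes were tested with limma on log2(scaled TPM + 1) over the 11960 genes with a mean of at least 1 TPM. TPM does not hold the number of reads behind each gene's value, and no counting error is given. Defining markers of β-cells were present in every culture, with a summed level of 146429 to 167599 TPM in 2D and 157279 to 167305 TPM in 3D. Most of this sum was Ins1 (112811 and 131711 TPM in 2D, 126566 and 134740 TPM in 3D). At an adjusted p below 0.05 in limma, 4 of the 16 markers were higher in 3D (Isl1, Slc2a2, Pcsk2 and Abcc8) and 1 was lower (Ins2). Over all genes tested the shares were 18.5% higher and 19.5% lower. The endothelial list summed to 1.07 to 1.19 TPM in 2D and 1.39 to 1.65 TPM in 3D with Cdh5 listed at 0 throughout, and the leukocyte list to 0.649 to 0.844 and 0.887 to 1.53 TPM with Ptprc at 0. The fibroblast list (208 to 223 TPM in 2D, 179 to 206 TPM in 3D) consisted almost wholly of Thy1, and Dcn and Lum were at 0. Of the other islet cell genes Gcg alone was above 1 TPM, and that list summed to 41.8 and 77.5 TPM in 2D and to 124 and 152 TPM in 3D. Mitochondrially encoded transcripts took 10.1% and 9.35% of TPM in 2D and 13.0% and 12.3% in 3D. The part of these shifts in the results below was not tested.

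Klf10, Nr4a1, Nr4a2 and Klf6 rose in 3D culture, and none of the 7 genes that could be tested fell. Of the 10 genes, 7 passed the minimum level and could be tested, and 4 of these 7 had an adjusted p below 0.05 with a higher level in 3D. Across all genes tested 18.5% were called higher and 19.5% lower. The median log2 fold change of the 7 genes was 0.35, against -0.0031 over all genes tested. In the same 4 genes both 3D cultures lay above both 2D cultures, a separation in this direction that 37.3% of all genes tested showed. With Nr4a3 and Egr3, which were below the minimum level, 6 of the 10 genes had it. The 37.3% covers tested genes only, and Egr3 was listed at 0 in both 2D cultures. In limma no gene of the set had a fall with an unadjusted p below 0.05. Because the RNA comes from whole cultures, more transcript in every cell and more cells with the transcript cannot be told apart.

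**Figure D1:**
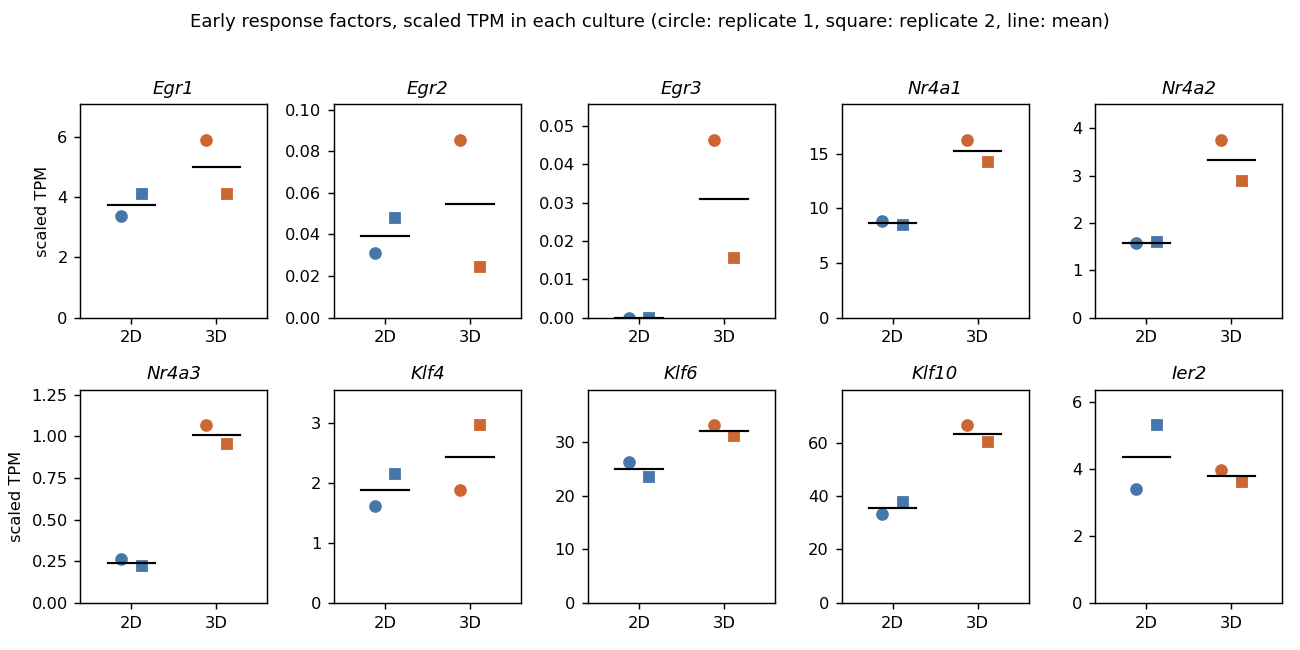
Scaled TPM (vertical axes, from 0, with a scale of its own in each panel) of the 10 early response factors in the 2D cultures (blue) and 3D cultures (orange), with circles for replicate 1, squares for replicate 2 and lines for group means. Nr4a1, Nr4a2, Nr4a3, Klf6 and Klf10 separate the groups at levels from 0.223 to 66.5 TPM, Egr3 does so below 0.05 TPM, and the groups of Egr1, Egr2, Klf4 and Ier2 overlap.

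Each of the NR4A receptors was higher in both 3D cultures than in both 2D cultures. Nr4a1 (Nur77), the most abundant of them, had 8.84 and 8.49 TPM in the 2D cultures and 16.3 and 14.3 TPM in the 3D cultures. The groups did not overlap, and the means were 8.66 ± 0.248 TPM (SD, n = 2) in 2D and 15.3 ± 1.43 TPM (SD, n = 2) in 3D. Its log2 fold change was 0.75 (standard error 0.086, 95% interval 0.53 to 0.96, adjusted p = 0.0051 in limma). Nr4a2 (Nurr1), best known for its role in dopaminergic neurons, had 1.58 and 1.59 TPM in 2D and 3.76 and 2.90 TPM in 3D. Both 3D values were clearly above the 2D pair, which were nearly equal. Its log2 fold change was 0.74 (standard error 0.13, 95% interval 0.40 to 1.07, adjusted p = 0.0127 in limma). At such low levels the pseudocount of 1 lowers the fold change, and the ratio of the mean scaled TPM was 2.10 for Nr4a2, 1.76 for Nr4a1 and 4.17 for Nr4a3. Nr4a3 (NOR-1), which has been linked together with Nr4a1 to β-cell proliferation downstream of Nkx6-1, had 0.261 and 0.223 TPM in 2D and 1.07 and 0.955 TPM in 3D. It lay below the minimum mean of 1 TPM and was not tested with the other genes. The plain difference in log2(scaled TPM + 1) was 0.69. In a fit without the minimum level Nr4a3 had a log2 fold change of 0.68 with an adjusted p of 0.0167 in limma, where 9.71% of the 16749 genes were called higher.

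The summed NR4A level went from 10.7 and 10.3 TPM in the 2D cultures to 21.1 and 18.1 TPM in the 3D cultures, 1.87 times the 2D mean. Nr4a1 made up 82.8% and 82.4% of this sum in 2D and 77.1% and 78.7% in 3D, while the share of Nr4a3 went from 2.45% and 2.16% to 5.05% and 5.27%. Thus the rarest receptor took a larger part of the family in 3D, a shift of shares that was not tested. Nr4a1 is listed with 2 transcripts. The main one, ENSRNOT00000010171.4, had 6.78 and 7.03 TPM in 2D and 12.0 and 11.9 TPM in 3D, and the other, ENSRNOT00000078663.1, had 2.06 and 1.46 TPM in 2D and 4.29 and 2.33 TPM in 3D. The difference between the 3D replicates of Nr4a1 therefore lay in the minor transcript. For Nr4a2, ENSRNOT00000041394.3 had 1.58 and 1.59 TPM in 2D and 2.99 and 2.80 TPM in 3D. The other Nr4a2 transcript, ENSRNOT00000078001.1, was listed at 0 in both 2D cultures and at 0.763 and 0.101 TPM in 3D. How reads are divided between transcripts of the same gene is an estimate of the quantification. With the most abundant transcript alone, the log2 fold changes were 0.72 for Nr4a1 and 0.60 for Nr4a2, both still called.

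Klf10 (TIEG1), a repressor first described as a TGF-β-inducible early gene, was the most abundant gene of the set. Its fold change on the log2(scaled TPM + 1) scale was above those of the other genes tested, but Nr4a2 was ahead of it with a pseudocount of 0.5 (0.87 against 0.82) or 0.1 (1.01 against 0.83) and by the ratio of means (2.10 against 1.78). It had 33.5 and 37.9 TPM in the 2D cultures and 66.5 and 60.3 TPM in the 3D cultures. Both 3D values were above both 2D values. The means were 35.7 ± 3.13 TPM (SD, n = 2) and 63.4 ± 4.38 TPM (SD, n = 2), and the log2 fold change was 0.81 (standard error 0.085, 95% interval 0.60 to 1.03, adjusted p = 0.0046 in limma). Ranked by level over all 23360 symbols, Klf10 stood at position 3357 in 2D and 1867 in 3D. All of its TPM came from ENSRNOT00000008350.3, and a second listed transcript was at 0 in every culture. Klf10 alone was 42.4% and 45.5% of the summed TPM of the 10 genes in 2D and 50.2% in each 3D culture.

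Klf6, an activator known as a tumor suppressor and induced by injury and growth factors, rose less. It had 26.3 and 23.5 TPM in 2D and 33.1 and 31.0 TPM in 3D, with no overlap. Its log2 fold change was 0.35 (standard error 0.078, 95% interval 0.16 to 0.55, adjusted p = 0.0208 in limma). Both listed Klf6 transcripts had nearly the same ratio of 3D to 2D means, 1.28 for the minor and 1.29 for the main one. Without the minimum level its adjusted p was 0.0557. Klf4, one of the reprogramming factors, had 1.61 and 2.15 TPM in 2D and 1.89 and 2.96 TPM in 3D. The groups overlapped, since the lower 3D culture was below the higher 2D culture. Its log2 fold change was 0.24 with a 95% interval from -0.24 to 0.72 (adjusted p = 0.357 in limma), which spans a fall as well as a rise.

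Egr1, a zinc finger factor induced by growth factors, made up between 97.8% and 99.1% of the summed TPM of Egr1, Egr2 and Egr3, a sum that leaves out Egr4. It had 3.39 and 4.10 TPM in the 2D cultures and 5.90 and 4.10 TPM in the 3D cultures. Replicate 1 of 3D stood above the rest, and replicate 2 of 3D was level with replicate 2 of 2D (4.096 against 4.097 TPM). Before scaling the values were 3.42 and 3.93 TPM in 2D and 5.94 and 4.19 TPM in 3D, so that the groups touched only after scaling. The log2 fold change was 0.33 (standard error 0.17, 95% interval -0.10 to 0.75, adjusted p = 0.175 in limma), a difference not larger than the spread between replicates. Without 3D replicate 1 it was 0.11, and without 3D replicate 2 it was 0.54. Egr2, best known for myelination, was at 0.0311 and 0.0477 TPM in 2D and 0.0854 and 0.0241 TPM in 3D. Egr3, a close relative induced by antigen receptor and growth factor signals, was listed at 0 in both 2D cultures and at 0.0464 and 0.0156 TPM in 3D, by a different transcript in each 3D culture. Both were below the minimum level. In the limma fit without it, the log2 fold change was 0.019 for Egr2 (adjusted p = 0.782) and 0.043 for Egr3 (adjusted p = 0.405), so that no difference was detectable at these levels.

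Ier2, a small nuclear protein gene induced by growth factors, was the only tested gene of the set with a negative fold change. It had 3.40 and 5.30 TPM in 2D and 3.96 and 3.60 TPM in 3D, and both 3D values lay between the 2D values. The log2 fold change was -0.14 with a 95% interval from -0.59 to 0.31 (adjusted p = 0.563 in limma), and without 2D replicate 2 it was 0.12. Whether Ier2 or Egr1 differed in response from the genes that rose was not tested.

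**Figure D2:**
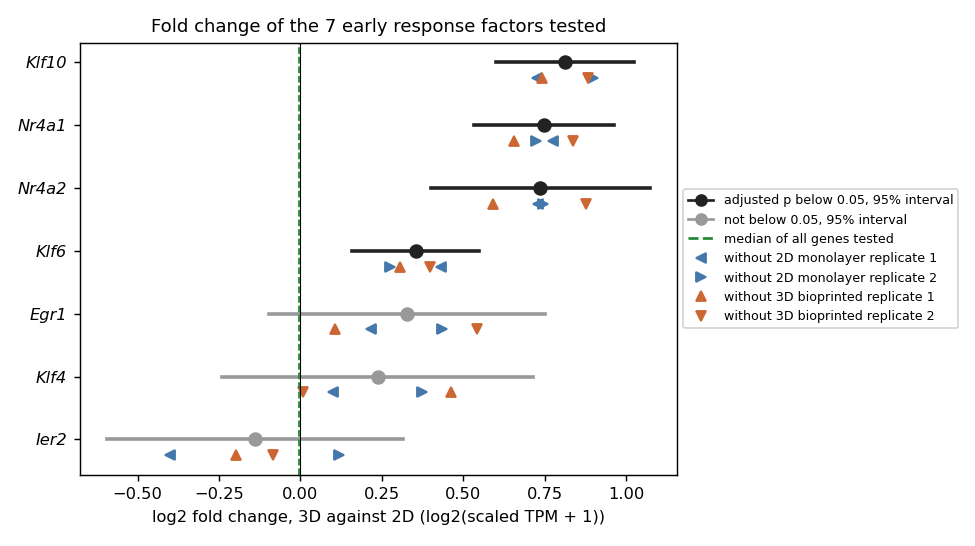
Log2 fold change of 3D against 2D culture (horizontal axis) for the 7 early response factors tested, with 95% intervals as lines, black where the adjusted p was below 0.05 and grey elsewhere, and triangles for the value with each culture left out. Klf10, Nr4a1 and Nr4a2 lie between 0.74 and 0.81, Klf6 at 0.35, and the intervals of Egr1, Klf4 and Ier2 cross 0.

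Because both 3D cultures lay above both 2D cultures in the 4 genes that rose, omitting 1 culture could hardly turn their sign. Their significance did depend on single cultures. When cultures were omitted one at a time, the fold change (log2) ran from 0.73 to 0.90 for Klf10, from 0.66 to 0.84 for Nr4a1, from 0.59 to 0.88 for Nr4a2 and from 0.27 to 0.43 for Klf6. Without 3D replicate 1 none of them passed, with adjusted p-values in limma of 0.0599 for Klf10, 0.0629 for Nr4a1, 0.0818 for Nr4a2 and 0.149 for Klf6. In that fit only 84 genes of all those tested were called higher. Without 3D replicate 2 the values were 0.0467, 0.0469, 0.0485 and 0.0928 in the same order. Klf6 also missed the threshold without 2D replicate 2 (adjusted p = 0.0585 in limma). The smallest two-sided p an exact permutation test allows with 2 cultures per group is 0.333, and the calls thus depend on limma's pooling of the spread over genes.

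In order of level the 2D cultures had Klf10, Klf6, Nr4a1, Ier2, Egr1, Klf4, Nr4a2, Nr4a3, Egr2 and Egr3. Ier2 and Egr1 overlapped there, and the other neighbors were apart. In the 3D cultures the order was Klf10, Klf6, Nr4a1, Egr1, Ier2, Nr4a2, Klf4, Nr4a3, Egr2 and Egr3, where Ier2 overlapped with Nr4a2, Nr4a2 with Klf4, and Egr2 with Egr3. The first 3 and the last 3 places were the same in both. The 10 genes together summed to 78.9 and 83.2 TPM in 2D and to 133 and 120 TPM in 3D. Of this sum the Krüppel-like factors held most, with 61.4 and 63.5 TPM in 2D and 101 and 94.2 TPM in 3D.

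The genes most like Klf10 in level and change, by the Euclidean distance of the 4 values of log2(scaled TPM + 1), were Fam102a, Wnt4 and Slc9a3r1. Fam102a, at a distance of 0.088, had 33.5 and 35.8 TPM in 2D and 65.2 and 61.5 TPM in 3D. The distances of Wnt4, a secreted WNT ligand, and Slc9a3r1, a scaffold protein of the cell membrane, were 0.18 and 0.19. The measure describes likeness over these 4 samples only.

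Among 18 relatives of the set, 13 could be tested, and 3 rose and 2 fell. Of all genes tested, 18.5% were called higher and 19.5% lower. The relatives and the lists that follow were written from gene function, with earlier results of these data known. Klf9, a target of glucocorticoid and thyroid hormone receptors, was at 30.7 ± 0.587 TPM in 2D and 51.5 ± 0.751 TPM in 3D (SD, n = 2 each), which in limma was a rise of 0.73 on the log2 scale with an adjusted p of 0.0036. Klf11, the closest relative of Klf10, rose from 6.25 ± 0.086 to 10.8 ± 0.139 TPM (0.70 on the log2 scale, adjusted p = 0.0044 by limma). Klf3, a repressor that recruits CtBP, rose from 2.50 ± 0.100 to 4.13 ± 0.012 TPM (log2 fold change 0.55, adjusted p = 0.0110). Klf2, known from endothelial cells under flow, fell (6.22 ± 1.42 TPM in 2D, 3.09 ± 0.424 TPM in 3D, log2 fold change -0.81, adjusted p = 0.0158 in limma). Klf16 fell as well (24.1 ± 1.84 TPM in 2D, 19.0 ± 0.020 TPM in 3D, log2 fold change -0.33, limma adjusted p = 0.0221). It lost its call without 2D replicate 2, without 3D replicate 1 and without 3D replicate 2 (adjusted p from 0.0578 to 0.137). Both directions thus occurred within the KLF family, as they did over all genes tested. The median log2 fold change of the 13 relatives was 0.27. Called higher were 0 of them without 3D replicate 1, 2 without 3D replicate 2 and 6 without 2D replicate 1, and the falls ran from 0 without 3D replicate 1 or 3D replicate 2 to 3 without 2D replicate 1. Egr4 was below the minimum level, with 0.440 and 0.374 TPM in 2D and 1.19 and 0.891 TPM in 3D, without overlap. Klf14, Klf15 and Klf17 were listed at 0 in every culture.

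**Figure D3:**
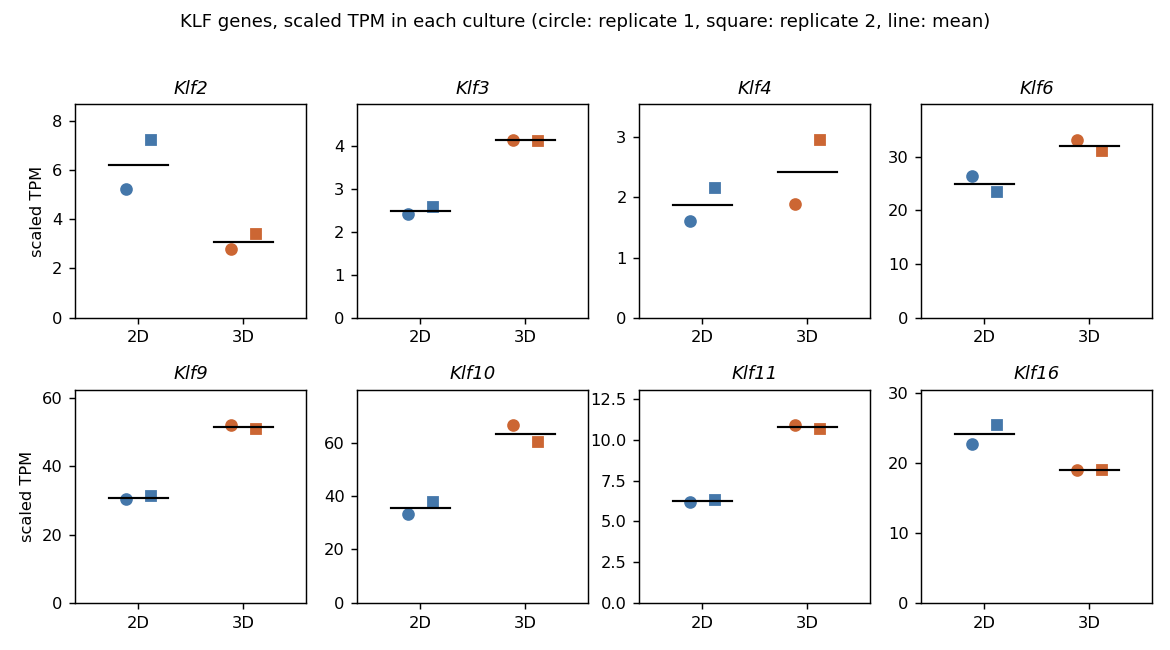
Scaled TPM (vertical axes, from 0, with a scale of its own in each panel) of Klf4 and of the KLF genes called in either direction, in 2D cultures (blue) and 3D cultures (orange), with circles for replicate 1, squares for replicate 2 and lines for group means. Klf3, Klf6, Klf9, Klf10 and Klf11 are higher and Klf2 and Klf16 lower in both 3D cultures, and the groups of Klf4 overlap.

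Genes that act with or upstream of the set were counted in the same fit. There 18.5% of all genes tested were called higher and 19.5% lower. Of 15 tested partners and corepressors, such as the EGR corepressors Nab1 and Nab2 and the RXR partners of NR4A receptors, 1 rose and 1 fell, with a median log2 fold change of 0.043. The fall was that of the histone deacetylase gene Hdac1 (-0.29, adjusted p = 0.0122 in limma) and the rise that of Rxrb (0.24, adjusted p = 0.0367), whose fold change was -0.17 with its most abundant transcript alone. Rxra, at 0.22, missed the threshold (adjusted p = 0.0533 in limma). In the branch of growth factor and ERK signaling with SRF, 4 of 22 rose and 4 fell (median 0.025). The smallest p-values there were those of the ETS factor Ets2 (0.49, adjusted p = 0.0053 in limma), the kinase gene Rps6ka3 (0.62, adjusted p = 0.0075) and Hras (-0.41, adjusted p = 0.0081). With 3D replicate 1 or 3D replicate 2 left out, no gene of this branch or of the partners was called in limma.

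The counts below stand beside shares of 18.5% called higher and 19.5% lower over all genes tested. Without the minimum level 9.71% of genes were called higher. In the branch of calcium and cAMP signaling with CREB, 14 of 28 genes rose and none fell, with a median of 0.25. The count of rises was 0 without 3D replicate 1, 2 without 3D replicate 2, 7 without 2D replicate 2 and 8 without the minimum level, and 1 gene was called lower without 2D replicate 1. In limma, the list's smallest p-values belonged to Crem, an inducible relative of CREB, which rose by 0.83 on the log2 scale (adjusted p = 0.0035), the salt-inducible kinase gene Sik2 with 0.86 (adjusted p = 0.0041) and Camk2d with 0.75 (adjusted p = 0.0050). Of the AP-1 family 5 of 7 rose and none fell (median 0.66), among them Junb (1.03, adjusted p = 0.0037 in limma), Atf3 (0.89, adjusted p = 0.0090) and Fos (0.66, adjusted p = 0.0175). Here the count of rises was 0 without 3D replicate 1, 1 without 3D replicate 2, and 3 without 2D replicate 2 or without the minimum level, and 1 gene was called lower without 2D replicate 1 and with the replicate block. Of 31 other immediate early and ERK feedback genes, 19 rose and 1 fell (median 0.49), with Dusp4 (1.30, adjusted p = 0.0027 in limma), Btg1 (1.17, adjusted p = 0.0035) and Dusp5 (1.08, adjusted p = 0.0035) at the smallest p-values. Only 3 of them were called higher without 3D replicate 1 and 7 without 3D replicate 2. The last list and the CREB list share Crem, and no difference between lists was tested. Of the 23 genes named as relatives, partners, pathway genes or genes most like Klf10, Rxra was not called in the fit of all cultures. Most of the others lost their call without 3D replicate 1, and fewer did without 3D replicate 2. The groups did not overlap in any of the 23 genes, so omitting 1 culture could hardly turn a sign.

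**Figure D4:**
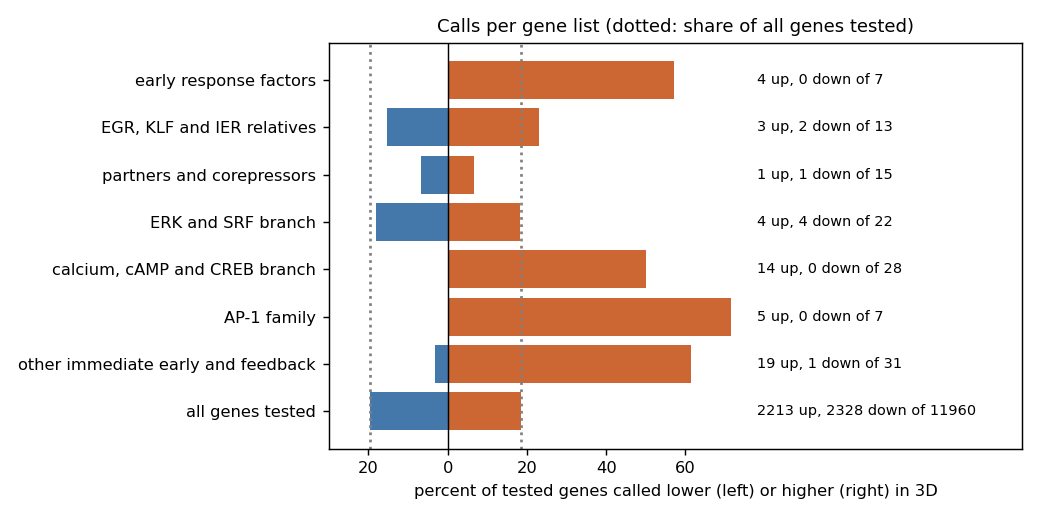
Percent of the tested genes of each list (horizontal axis) that were called lower (blue, to the left) or higher (orange, to the right) in 3D culture at an adjusted p below 0.05, with the counts beside each bar and dotted lines at the shares of all genes tested, 19.5% lower and 18.5% higher. The early response factors show 4 of 7 higher and none lower.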

How the data were processed

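Messenger RNA from 4 cultures of INS-1 cells, 2 in monolayer and 2 in bioprinted hydrogel, was analysed. Groups and replicate numbers follow the sample labels. The authors checked reads with FastQC 0.11.8, quantified them with Salmon 1.2 on rat transcripts (rn4) plus human insulin, and deposited values per transcript in TPM, with decimal commas (an automated unit check could not read these as numbers). No value was negative and each sample summed to 1000000. TPM keeps no counts, so the DESeq2 test of the methods was not repeated. The methods state a total read number per sample, but the reads behind each gene's value cannot be read from TPM.

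TPM were summed per gene symbol. The 11960 genes with a mean of at least 1 TPM set the scaling factors between samples (trimmed mean of M without weights, cutting 30% of M and 5% of A per side). The test was limma 3.58.1 in R 4.3.3 on log2(TPM + 1) (empirical Bayes with intensity trend, two-sided), with Benjamini-Hochberg adjustment across every gene tested, and the steps were tested on simulated data. Samples were compared pairwise and had no equal values above 0.

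The genes and lists were chosen with earlier results of these data known. Named are the 10 genes, the 3 smallest p of each list, relatives and partners past the threshold, and the 3 genes most like Klf10, the gene with the largest called log2 fold change at a pseudocount of 1. List symbols were matched by symbol or older symbol, and Mkl2, Mcl1, Col1a2 and Pecam1 are not analysed here. Alternatives were the scaling, the minimum level, the pseudocount, the empirical Bayes options, the replicate block, the threshold, the transcript summary and each culture left out. Protein sequences were not used here.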

Additional observations from a re-analysis of the deposited data

How the results depend on the processing

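Klf10, Nr4a1 and Nr4a2 stayed past the threshold under every alternative that kept all 4 cultures and tested them, with adjusted p-values in limma from 0.0010 to 0.0176, from 0.0012 to 0.0190 and from 0.0066 to 0.0308. Klf6 missed it without the minimum level alone (log2 fold change 0.32, adjusted p = 0.0557), and Egr1, Klf4 and Ier2 passed it nowhere. At an adjusted p below 0.01, 2 of the 10 genes were called higher, and 724 of all genes were called higher and 694 lower. With each culture left out, the calls among the 10 genes ran from 0 to 4 higher, with 0 lower, and the calls among all genes from 84 to 2277 higher and from 24 to 2179 lower. A group left with a single culture is assumed to vary like the other. The log2 fold changes then ran from 0.73 to 0.90 for Klf10, 0.66 to 0.84 for Nr4a1, 0.59 to 0.88 for Nr4a2, 0.27 to 0.43 for Klf6, 0.11 to 0.54 for Egr1, 0.0094 to 0.46 for Klf4, -0.40 to 0.12 for Ier2, 0.65 to 0.73 for Nr4a3, -0.021 to 0.062 for Egr2 and 0.022 to 0.065 for Egr3. The value of Ier2 without 2D replicate 2 was 0.12, where its sign turned. For the genes below the minimum level, the differences with a pseudocount of 0.1 were 0.12 for Egr2, 0.38 for Egr3 and 1.70 for Nr4a3, and with 0.5 they were 0.086 for Egr3 and 1.02 for Nr4a3, since a smaller pseudocount shrinks low values less. Without scaling, the median of all genes moved from -0.0031 to 0.036. Rxrb was at -0.17 with its most abundant transcript alone, the cause of which was not tested. Of 180 list counts recomputed, 130 stayed within 1.5 times their value.

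Deviations of cultures with the same replicate number were not correlated across genes (-0.0060), but 2 pairs cannot decide whether the replicates were paired. The replicate block gave 2450 genes called higher and 2364 lower over all genes tested, against 2213 and 2328 without it. With the replicate block the log2 fold changes are the same by construction, and the same 4 genes were called (adjusted p = 0.0010 for Klf10, 0.0012 for Nr4a1, 0.0066 for Nr4a2 and 0.0082 for Klf6 in limma). With 2 cultures per group and no counts in TPM, differences in Egr2 and Egr3 were not detectable.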
